A study of Fragaria x ananassa with 9 samples.

Results

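MYB transcription factors other than the nearest relatives of known pigment regulators were examined in petals of pink-flowered strawberry. A unigene is the longest transcript of a cluster in a de novo assembly, and 139 of the 50285 unigenes carried the word MYB in their Nr or SwissProt description. One of these was named for the circadian clock, 5 did not reach 1 TPM (the abundance of a transcript, corrected for its length and scaled to an equal total per library) in at least 3 of 9 libraries, and 6 pigment relatives were set aside, which left 127 members. Petals of the cultivar Sijihong, derived from Pink Princess × Pretty Beauty, were sampled from young buds with colorless petals (PF_L), from buds in which coloration had begun (PF_Z) and from big buds with fully colored petals (PF_D). Each stage had 3 biological replicates, no treatment was applied, and all 9 libraries share 1 genotype, so the comparisons are between stages of 1 cultivar. Identifiers are given without their common prefix TRINITY_.

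MYB proteins bind DNA through imperfect helix-turn-helix repeats and are named by how many repeats they hold. The R2R3 type is the large plant class, with members that govern phenylpropanoid synthesis, secondary walls, epidermal cell shape, wax, scent and stamen maturation in model plants. The MYB3R type controls genes of the G2 and M phases of the cell cycle, the short R3 type competes with R2R3 proteins for bHLH partners, and MYB-CC and GARP proteins have a single related repeat and include regulators of the phosphate response and of flowering.

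A member's name is that of its best protein match, mostly from Arabidopsis, Antirrhinum, rice or Fragaria vesca, and marks a relative and not a characterized strawberry gene. A Myb domain was listed for 84 of the 127, and 110 had their best Nr match in Fragaria. In 22 clusters there was more than 1 member (47 members together), and unigenes of one cluster can share sequence and reads. Lengths ran from 203 to 4521 bp with a median of 1151 bp, and 21 were under 500 bp. By name or default, 62 were R2R3 proteins, 22 MYB-CC and GARP proteins, 10 single-repeat proteins named MYB1R1, 4 short R3 proteins and 3 three-repeat proteins. The R2R3 count includes 14 members that matched no named group and were placed there by default. A Myb domain was listed for 2 of these 14. The other 26 members were proteins such as TOM1, named as a target of Myb, and L10-interacting proteins. A Myb domain was listed for 11 of these 26, so not all of them lie outside the MYB family. The rule by word is still wider than that family, as TOM1 shows. It also kept matches to pigment regulators of other species, among them TT2, 2 named C1, 2 named MYB12 and a MYB90-like unigene, so the set is not free of pigment relatives by name. A MYB28-like fragment of 203 bp, DN21524_c1_g3, and the MYB90-like DN21029_c0_g1 each lie in a cluster with a unigene that was set aside.

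Values were compared between stages with limma on log2(TPM + 1), and a unigene was called where the log2 fold change reached 1 up or down with an adjusted p below 0.05. All fold changes are on that scale, which understates changes of members at a few TPM. Ratios of TPM means are given beside them. Each stage enters a pair of the 3 comparisons, so these are not independent. Within-stage correlations of log2 values over unigenes were 0.919 to 0.951, and libraries of 3 against 3 cannot go below p = 0.10 in an exact permutation test of a single unigene. PMADS2 and FBP1, MADS-box genes of petal and stamen identity, stood between 116.1 and 1383 TPM in every library and were not called, whereas no unigene matched the AP3 type of that list. For 35 unigenes of a green tissue list, summed TPM was 6980 to 10644 in PF_L and 2432 to 10008 in PF_Z. In PF_D it was 599 to 2159. Of the 35, 29 were called lower in PF_D than in PF_L (82.9%), beside 15.7% of all tested unigenes. The list was matched by symbol and holds CAB39 DN22210_c0_g2, whose name is that of a calcium-binding protein and not of a chloroplast gene, at 19.4 to 30.6 TPM and not called. Among 17 anther and pollen genes tested, PF_D against PF_L gave 4 rises and 6 falls (58.8%), beside 25.1% of all tested unigenes. Sums of that list were 159 to 177 TPM in PF_L, 133 to 169 in PF_Z and 117 to 195 in PF_D. The pollen gene LAT52 stood at 63.8, 7.82 and 31.5 TPM in PF_D and at most at 4.77 TPM before, whereas the pollen wall gene CYP704B1 DN13004_c0_g1 was listed at 0 in all PF_D libraries. In whole petals, fewer cells of a type and less RNA per cell cannot be told apart, and the part of either list in the results was not tested.

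More members fell than rose toward the big bud. In PF_D against PF_L, 10 members were called higher and 39 lower (38.6%), beside 25.1% of all 47924 tested unigenes. In PF_D against PF_Z, 17 were called higher and 30 lower (37%), beside 18.0% of all. In all tested unigenes, higher and lower calls came to 9.38% and 15.7% in the former comparison and to 8.89% and 9.07% in the latter. The median log2 fold change of the members was -0.43 in PF_D against PF_L, where that of all tested unigenes was -0.12, and -0.01 in PF_D against PF_Z, where that of all was 0.08. These are descriptions of a list chosen by name. Counts of classes and companion lists below are to be read beside the same shares of all tested unigenes. Such shares vary with level. Among the 54 members with a mean of at least 10 TPM, 42.6% and 50% were called, beside 28.8% and 23.5% of the 15508 unigenes of that level. The libraries of both stages did not overlap for 76 members in PF_D against PF_L (50.2% of all tested unigenes), for 68 in PF_D against PF_Z (40.7% of all) and for 52 in PF_Z against PF_L (31.4% of all).

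**Figure D1:**
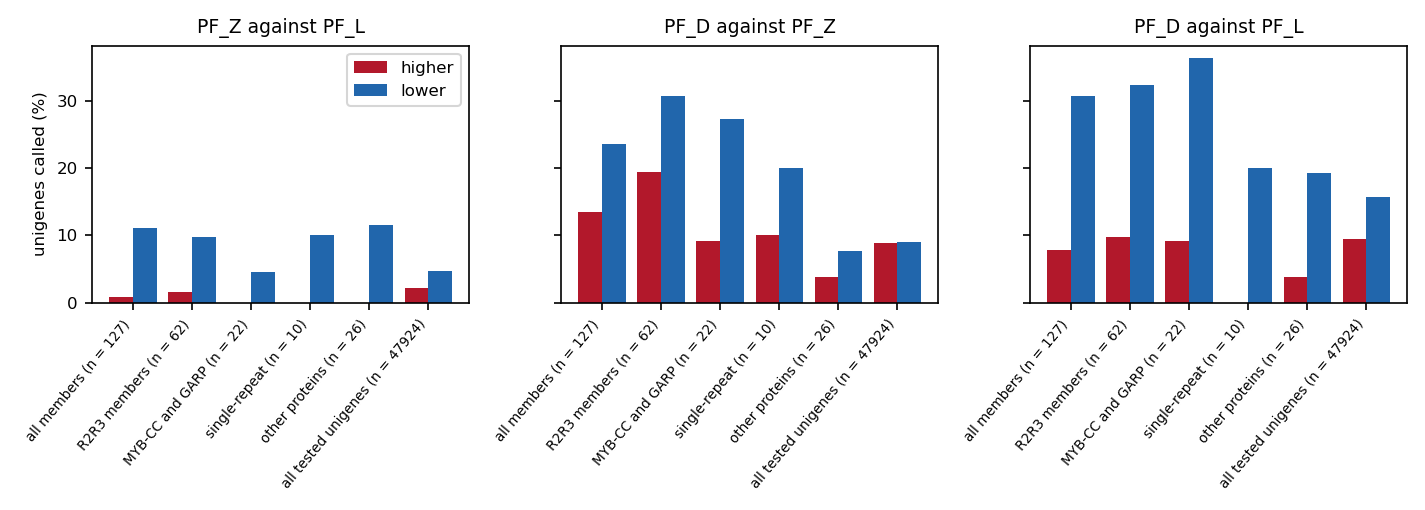
Percentage of unigenes called higher (red) and lower (blue) on the vertical axis, for all members, 4 of their classes and all tested unigenes on the horizontal axis, with the number of unigenes in parentheses. The blue bar of all members stands above that of all tested unigenes in every comparison, and in PF_D against PF_Z, 12 R2R3 members were higher and 19 lower, beside 1 and 2 of the 26 other proteins. The difference between classes was not tested.

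Between PF_L and PF_Z most of the called members were lower in PF_Z. In PF_Z against PF_L, 1 member was called higher and 14 lower (11.8%), beside 6.84% of all tested unigenes, of which 2.15% were higher and 4.70% lower. These counts varied with single libraries: 6 to 9 members were lower without any 1 of the PF_L libraries or without PF_Z replicate 1 or 2, and 22 without PF_Z replicate 3. Calls over all tested unigenes moved in the same way. They numbered 3280 with all libraries, 1742 to 2092 without 1 of the former, and 4719 without PF_Z replicate 3. The count of higher members was 2 without PF_L replicate 1 and 0 without PF_L replicate 2 or replicate 3. All tested unigenes had a median log2 fold change of -0.21 in this comparison. Scaling by median ratios moved that median to -0.03 and the members called to 4 higher and 9 lower, and quantile normalization moved it to -0.02 and the members to 5 higher and 8 lower.

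Across the 3 comparisons, 64 of the 127 members were called at least once, beside 31.2% of all tested unigenes, and 63 never. Of the 64, 20 were called lower in PF_D than in either earlier stage, with no call between PF_L and PF_Z. Another 9 were called higher in PF_D than in either, again with no call between PF_L and PF_Z. A missing call is not a lack of change: the MYB28-like DN21524_c1_g3, among the 20, had no overlap between PF_L and PF_Z. At both steps, 5 members were called lower. The 5 were MYB3 DN14048_c0_g1 and DN13571_c2_g1, C1 DN13280_c0_g1, MYB1R1 DN12060_c0_g2 and a MYB named At1g14600. For the last, the call in PF_Z against PF_L was kept under 3 of 20 alternatives, and that in PF_D against PF_Z under 12. One member, the TT2-like DN9391_c0_g1, fell and then rose. Of all members, 5 reached the filter in libraries of 1 stage only, which made a difference likely from the start: without them the calls were 8 higher and 38 lower in PF_D against PF_L, and 15 higher and 28 lower in PF_D against PF_Z.

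**Figure D2:**
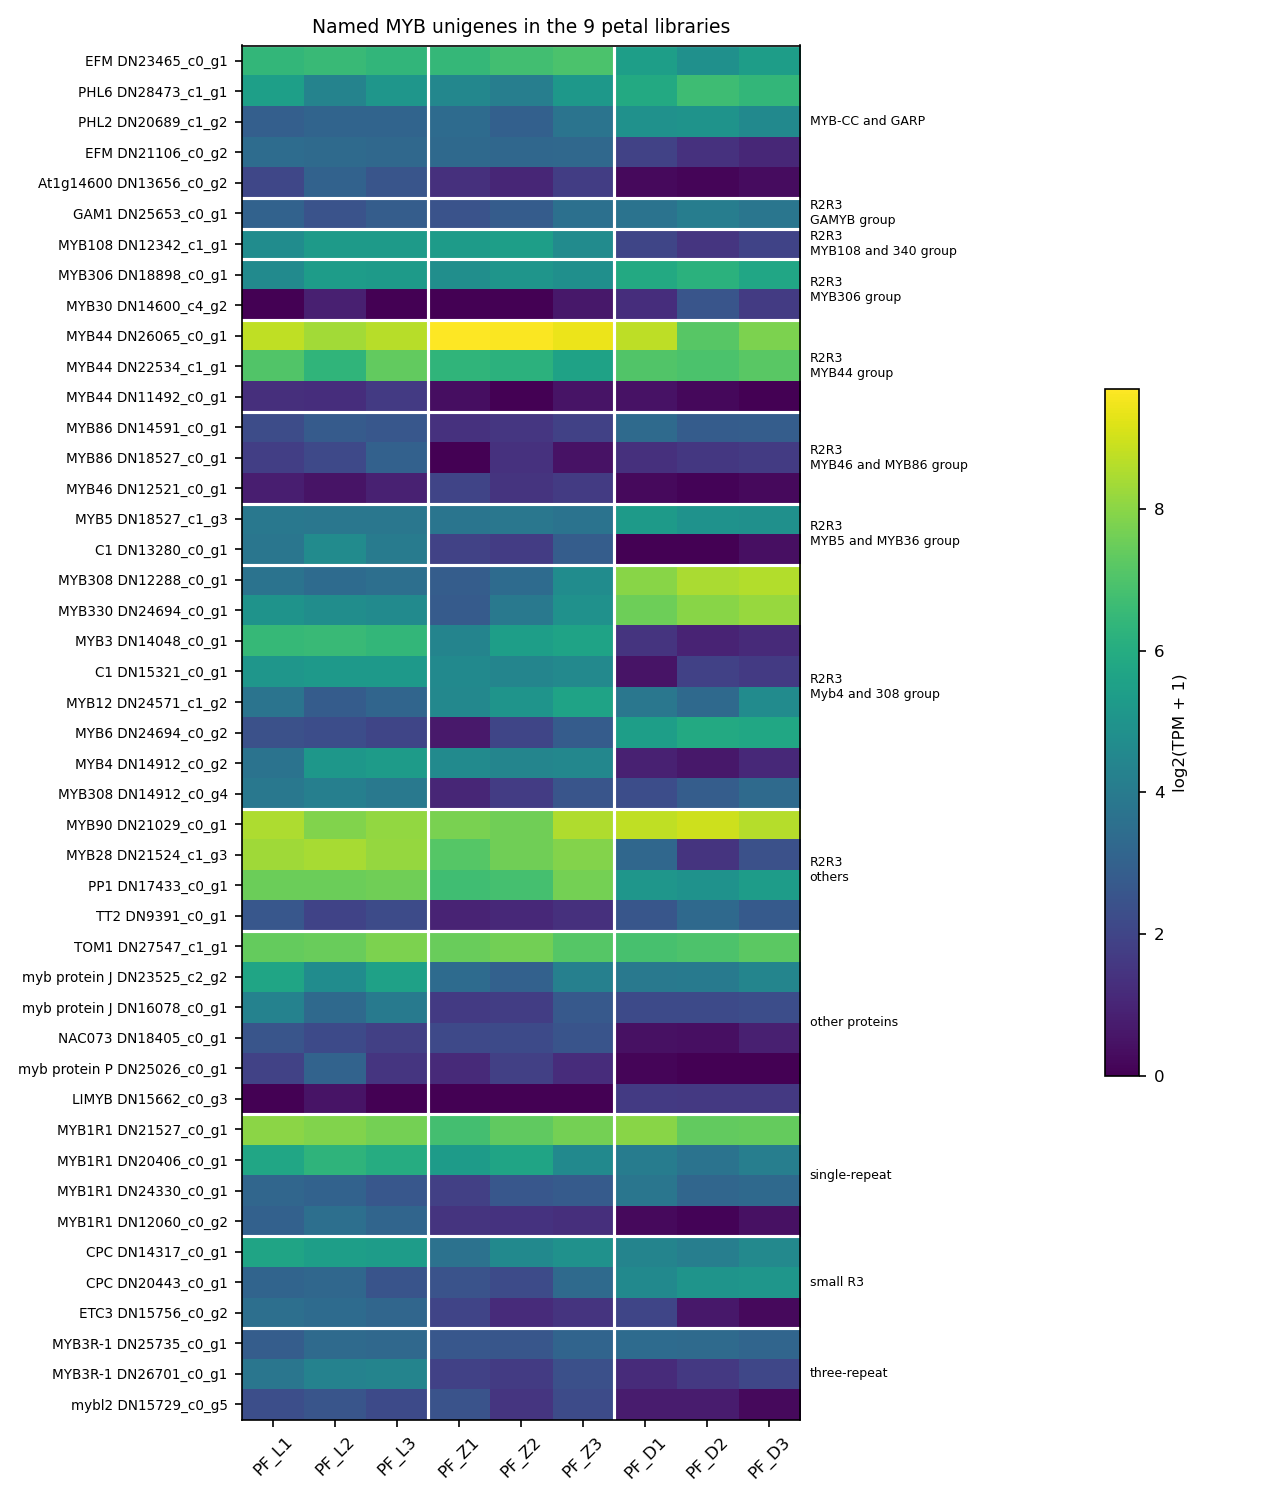
Level of 45 members named by a fixed rule (rows, by class) in each of the 9 libraries (columns), as log2(TPM + 1), with white lines between stages and classes. The MYB308, MYB330 and MYB6 rows turn bright only in PF_D, whereas MYB28, MYB3 and MYB108 turn dark there.

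Levels ran over a wide range. The mean over 9 libraries was 0.692 to 471 TPM, with a median of 7.62 TPM, and the 10 members at 100 TPM or more held 53.1% of the summed member TPM. Summed over all members, TPM was 4046 to 4290 in PF_L, 3694 to 4229 in PF_Z and 3466 to 3836 in PF_D, so that all PF_D libraries lay below all PF_L libraries. The highest means were those of MYB44 DN26065_c0_g1 (471 TPM), the MYB90-like DN21029_c0_g1 (329 TPM) and MYB44 DN22291_c0_g1 (271 TPM), of which the libraries overlap.

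The group of Myb4, MYB308 and MYB330 names, R2R3 repressors of phenylpropanoid genes in Antirrhinum and Arabidopsis, held the widest spread of changes. All 13 of its members were called in at least 1 comparison, and in opposite directions. In PF_D against PF_L, 3 rose and 7 fell (76.9%), beside 25.1% of all tested unigenes called. Against PF_Z, 4 rose and 7 fell in PF_D (84.6%), beside 18.0% of all. Summed TPM of the group was 342 to 375 in PF_L, 274 to 366 in PF_Z and 607 to 862 in PF_D.

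MYB308 DN12288_c0_g1 had 11.99, 9.56 and 10.5 TPM in PF_L, 6.18, 9.47 and 25.5 TPM in PF_Z, and 251, 349 and 378 TPM in PF_D. Every PF_D library was far above the other 6, among which PF_L and PF_Z overlap. The PF_D mean of 326 ± 66.3 TPM (SD, n = 3) was 30.5 times that of PF_L. Its log2 fold change was 4.79 (SE 0.39, adjusted p = 1.4e-05) against PF_L and 4.68 (SE 0.39, adjusted p = 4.2e-05) against PF_Z. MYB308 of Antirrhinum represses hydroxycinnamic acid and monolignol synthesis when overexpressed in tobacco.

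MYB330 DN24694_c0_g1, whose Nr match is the repressor MYB6 of Fragaria vesca, had 30.9, 25.6 and 23.8 TPM in PF_L, 5.89, 14.2 and 28.7 TPM in PF_Z, and 187, 251 and 288 TPM in PF_D. Again the PF_D libraries stood apart from all others. The rise was 3.12 (SE 0.42, adjusted p = 0.00032) against PF_L and 4.04 (SE 0.42, adjusted p = 0.00014) against PF_Z. PF_Z and PF_L overlap and their difference was not called (-0.92, SE 0.42, adjusted p = 0.20), though it passed without PF_Z replicate 3. A MYB6-like fragment of 367 bp from the same cluster, DN24694_c0_g2, rose with it, from 3.74 ± 0.592 TPM in PF_L to 51.0 ± 7.77 TPM in PF_D (n = 3). Since both share a cluster, they are not separate evidence. Within PF_Z, replicate 3 had the highest MYB308 and MYB330 values, and it also had the lowest green tissue sum (2432 TPM, beside 10008 and 5249 TPM in replicates 1 and 2). The part of the latter in the former was not tested.

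MYB3 DN14048_c0_g1 went the other way. It had 87.7, 93.3 and 84.8 TPM in PF_L, 19.8, 42.4 and 48.2 TPM in PF_Z, and 1.78, 0.95 and 1.24 TPM in PF_D. The 3 stages did not overlap, and the mean of PF_L was 67.0 times that of PF_D. The log2 fold change was -1.34 (SE 0.29, adjusted p = 0.020) at the first step, a call lost in the model of the 6 libraries compared and without any 1 PF_L library or PF_Z replicate 1, and -3.95 (SE 0.29, adjusted p = 2.1e-05) at the next. MYB3 of Arabidopsis represses phenylpropanoid genes. The Nr match of the unigene, however, is MYB82-like, a trichome regulator, so its place in this group rests on the SwissProt name.

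A Myb4-like unigene, DN14912_c0_g2, had 11.97, 33.7 and 39.0 TPM in PF_L, 23.6, 20 and 21.7 TPM in PF_Z, and 0.84, 0.53 and 1.14 TPM in PF_D. It fell by 3.85 against PF_L (SE 0.37, adjusted p = 3.5e-05) and by 3.64 against PF_Z (SE 0.37, adjusted p = 0.00012). The PF_D libraries were all near 1 TPM, and those of PF_L and PF_Z overlap. Its cluster mate MYB308-like DN14912_c0_g4 was highest in PF_L at 15.1 ± 1.91 TPM and lowest in PF_Z at 2.75 ± 1.92 TPM (n = 3), a fall of 2.22 (SE 0.37, adjusted p = 0.0065). The C1-named DN15321_c0_g1, matched in Nr to a MYB6-like repressor, had 32.8, 37.01 and 36.5 TPM in PF_L, 23.2, 20.3 and 22.7 TPM in PF_Z, and 0.42, 2.64 and 2.17 TPM in PF_D. Its 3 stages did not overlap, and it fell by 3.84 against PF_L (SE 0.30, adjusted p = 1.1e-05).

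The one member called higher at the onset of coloration was DN24571_c1_g2, named MYB12 in SwissProt, a flavonol activator in Arabidopsis, and MYB330 in Nr. It had 12.2, 6.01 and 7.88 TPM in PF_L, 22.0, 30.9 and 48.2 TPM in PF_Z, and 13.2, 8.98 and 24.8 TPM in PF_D. All PF_Z libraries were above all PF_L libraries, whereas PF_D overlaps both. The rise was 1.82 (SE 0.38, adjusted p = 0.018), a call that was lost without PF_L replicate 2 or 3 or PF_Z replicate 2. Myb4 DN22826_c0_g1 was also highest in PF_Z, at 132 ± 48.5 TPM beside 80.6 ± 19.7 TPM in PF_L, a difference that was not called (0.67, SE 0.31, adjusted p = 0.20), and fell by 1.76 from PF_Z to PF_D (SE 0.31, adjusted p = 0.0026).

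**Figure D3:**
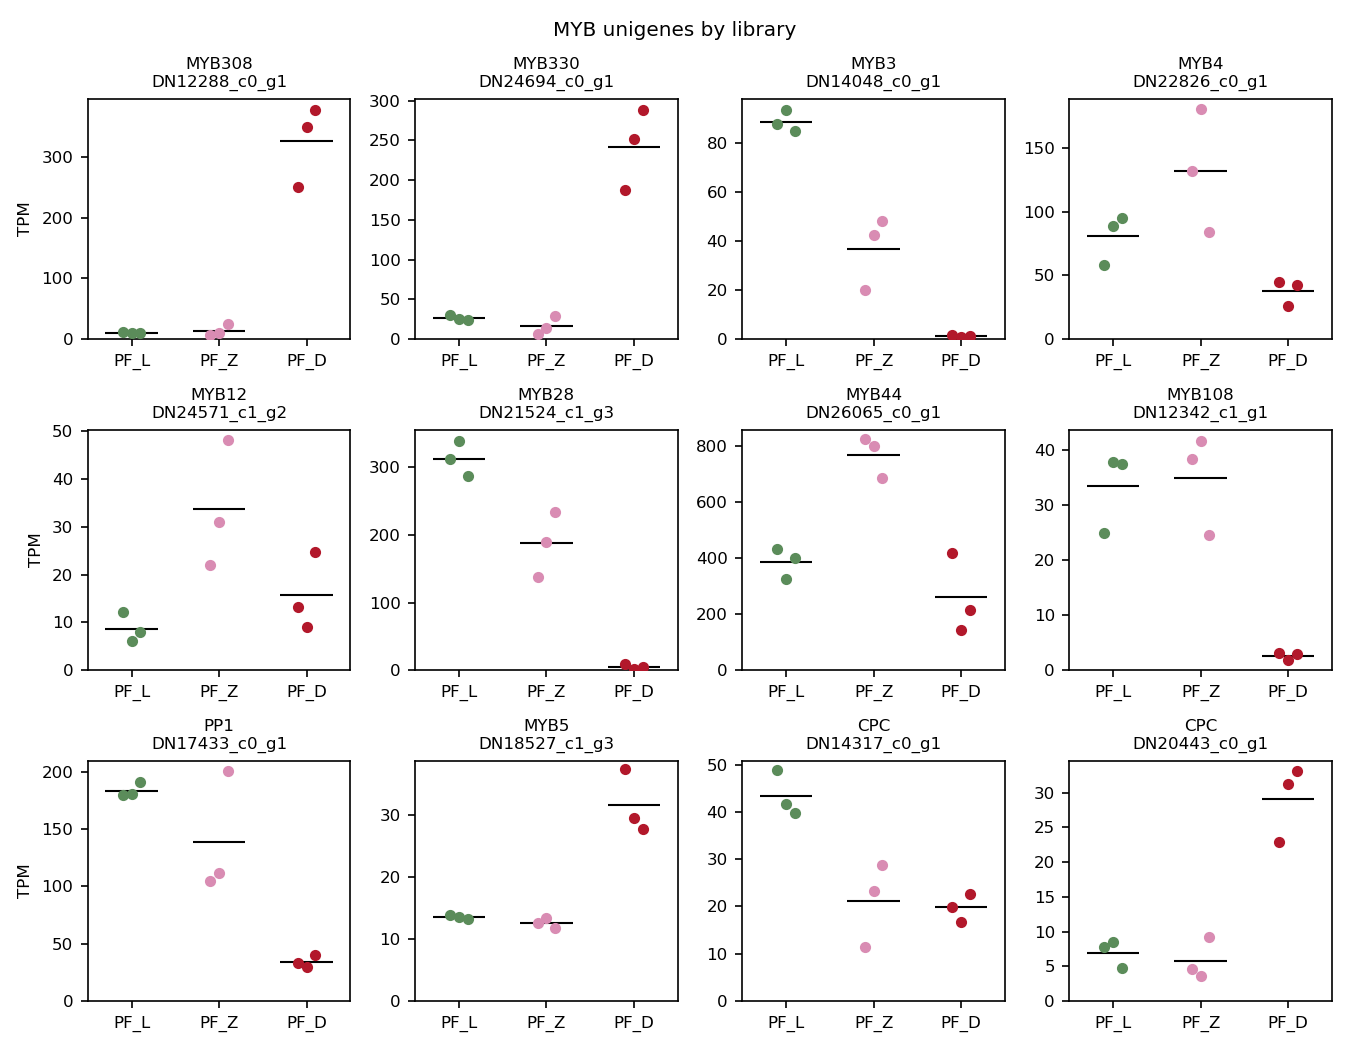
TPM of 12 members in each library, with 1 point per replicate, a line at the stage mean and a separate vertical axis from 0 for each member. MYB308 and MYB330 are high in PF_D alone, MYB12, MYB44 and Myb4 have their highest means in PF_Z, and the 2 CPC-like members differ in direction.

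Outside that group, the deepest fall was that of the MYB28-like fragment DN21524_c1_g3. MYB28 of Arabidopsis controls aliphatic glucosinolates, and the fragment of 203 bp shares its cluster with a pigment relative that was set aside. It had 313, 339 and 287 TPM in PF_L, 138, 190 and 234 TPM in PF_Z, and 8.5, 1.72 and 4.24 TPM in PF_D. The stages did not overlap, and it fell by 5.93 against PF_L (SE 0.38, adjusted p = 2.9e-06) and by 5.16 against PF_Z (SE 0.38, adjusted p = 2.0e-05). The MYB90-like DN21029_c0_g1 had 357, 227 and 278 TPM in PF_L, 212, 191 and 368 TPM in PF_Z, and 437, 492 and 395 TPM in PF_D. Its PF_D libraries were the highest 3, but by less than the limit: 0.63 (SE 0.26, adjusted p = 0.082) against PF_L and 0.84 (SE 0.26, adjusted p = 0.036) against PF_Z, which reached a call without PF_Z replicate 3.

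DN17433_c0_g1, matched in Nr to ODORANT1, an activator of the benzenoid scent pathway in petunia, had 179, 180 and 191 TPM in PF_L, 104, 111 and 201 TPM in PF_Z, and 33.3, 29.7 and 40.1 TPM in PF_D. The PF_D libraries lay under all others, and the PF_L mean was 5.34 times that of PF_D. It fell by 2.39 against PF_L (SE 0.23, adjusted p = 3.9e-05) and by 1.93 against PF_Z (SE 0.23, adjusted p = 0.00031). In SwissProt it is Pp1 of the moss Physcomitrella. The TT2-like DN9391_c0_g1, matched in Nr to MYB11 of strawberry, had 5.15, 2.84 and 3.65 TPM in PF_L, 0.95, 1.16 and 1.52 TPM in PF_Z, and 4.97, 8.90 and 5.75 TPM in PF_D. TT2 of Arabidopsis activates proanthocyanidin synthesis in the seed coat. It was lowest in PF_Z, where the fall of 1.12 (SE 0.28, adjusted p = 0.032) was lost with either scaling, with the replicate number as a block, and without any 1 PF_L library, PF_Z replicate 1 or 2 or PF_D replicate 3, and it rose from there by 1.74 (SE 0.28, adjusted p = 0.0014).

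MYB44 proteins take part in abscisic acid and stress responses in Arabidopsis, and 9 members bore that name. None was called in PF_Z against PF_L, beside 6.84% of all tested unigenes. In PF_D against PF_Z, 1 rose and 3 fell (44.4%), beside 18.0% of all. The group's sum was 778 to 1051 TPM in PF_L, 1312 to 1595 in PF_Z and 514 to 1014 in PF_D, so that PF_Z stood above both other stages.

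MYB44 DN26065_c0_g1 had 434, 324 and 400 TPM in PF_L, 824, 799 and 684 TPM in PF_Z, and 419, 143 and 216 TPM in PF_D. Its PF_Z libraries were above all others, and PF_D overlaps PF_L. The difference of 1.0 (SE 0.32) at the first step had an adjusted p of 0.082 and was not called, and the fall from PF_Z to PF_D was 1.70 (SE 0.32, adjusted p = 0.0039). PF_D against PF_L was not called (-0.70, SE 0.32, adjusted p = 0.12), except without PF_D replicate 1. DN22291_c0_g1 had 291, 189 and 262 TPM in PF_L, 415, 468 and 356 TPM in PF_Z, and 251, 82.2 and 126 TPM in PF_D, and fell by 1.57 from PF_Z (SE 0.34, adjusted p = 0.0081). In both, and in DN22534_c0_g2 at 42.2, 12 and 18.07 TPM, PF_D replicate 1 was the highest of its stage and replicate 2 the lowest. The same order held there for the green tissue sum (2159, 599 and 1301 TPM) and for LAT52, and the part of these was not tested. The fragment DN22534_c1_g1 of 256 bp, by contrast, was lowest in PF_Z at 67.1 ± 18.02 TPM and rose by 1.03 to 135 ± 12.7 TPM in PF_D (SE 0.27, adjusted p = 0.019, n = 3), a call lost with either scaling and without PF_Z replicate 3 or PF_D replicate 3.

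MYB108 acts in stamen maturation downstream of jasmonate in Arabidopsis, and 4 members had a name of that group. DN12342_c1_g1 had 24.9, 37.8 and 37.4 TPM in PF_L, 38.4, 41.6 and 24.6 TPM in PF_Z, and 3.07, 1.79 and 2.87 TPM in PF_D. The earlier stages overlap, and all PF_D libraries were far below both. It fell by 3.26 against PF_L (SE 0.25, adjusted p = 9.7e-06) and by 3.31 against PF_Z (SE 0.25, adjusted p = 2.5e-05). The other 3 members of the group were not called, of which DN16106_c0_g3, also named MYB108, had the highest level, 16.9 ± 3.50 TPM in PF_L and 12.2 ± 1.71 TPM in PF_D (n = 3). Of 16 unigenes for the jasmonate receptor COI1, TIFY proteins, which include its JAZ repressors, and MYC2, 1 rose and 8 fell in PF_D against PF_L, and 2 rose and 8 fell in PF_D against PF_Z. Calls thus came to 56.2% and 62.5% of this list, beside 25.1% and 18.0% of all tested unigenes. TIFY8 and TIFY4B, which are not JAZ proteins, were among those listed that fell against PF_L, and TIFY8 also fell against PF_Z. The JAZ gene TIFY9 fell by 4.66 from PF_Z (SE 0.43, adjusted p = 7.8e-05), whereas TIFY6B DN21660_c0_g1 rose by 1.45 (SE 0.12, adjusted p = 4.2e-05) and COI1 was not called.

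GAMYB mediates gibberellin responses in the aleurone and anther of cereals. GAM1-like DN25653_c0_g1 had 7.32, 4.52 and 6.16 TPM in PF_L, 4.62, 6.12 and 10.9 TPM in PF_Z, and 11.8, 16.04 and 13.01 TPM in PF_D. Its PF_D libraries were above all others, and it rose by 1.07 against PF_L (SE 0.28, adjusted p = 0.014), a call lost without PF_L replicate 2 or PF_D replicate 2. The gibberellin receptor unigene GID1C rose as well, from 433 ± 46.4 to 1923 ± 88.1 TPM (2.15, SE 0.26, adjusted p = 0.00017, n = 3), and the DELLA unigene GAI1 DN13555_c0_g1 rose by 1.75 (SE 0.29, adjusted p = 0.0012). GID1B and the more abundant GAI1 DN24722_c0_g1 were not called.

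Both MYB46-named members, switches of secondary wall synthesis in Arabidopsis, were low and highest in PF_Z. DN12521_c0_g1 had 0.74, 0.41 and 0.85 TPM in PF_L, 2.97, 1.77 and 2.24 TPM in PF_Z, and 0.20, 0.07 and 0.19 TPM in PF_D. DN17495_c0_g1 had 0.82, 0.61 and 0.70 TPM in PF_L, 1.85, 1.80 and 2.33 TPM in PF_Z, and 0.05, 0 and 0.20 TPM in PF_D. In each, the stages did not overlap, and the filter was met through PF_Z alone. Since a member that passes through its high stage had to differ, these are given as values with no test.

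Of 14 tested secondary wall unigenes, 4 rose and 1 fell in PF_Z against PF_L, and 1 rose and 10 fell in PF_D against PF_Z. These are 35.7% and 78.6%, beside 6.84% and 18.0% of all tested unigenes. CESA8, a subunit of the secondary wall cellulose synthase, had 6.06, 3.92 and 3.82 TPM in PF_L, 10.5, 11.4 and 14.9 TPM in PF_Z, and 1.45, 0.72 and 1.88 TPM in PF_D. It rose by 1.26 (SE 0.27, adjusted p = 0.018) and then fell by 2.52 (SE 0.27, adjusted p = 0.00015), and CESA4 and the xylan synthase IRX9 rose and fell likewise. IRX7 went the other way in PF_D, where it rose by 1.95 from PF_Z (SE 0.28, adjusted p = 0.00089) to 197, 151 and 149.7 TPM. The summed TPM of the list ran against its counts, with 69.01 to 104 in PF_L, 103.4 to 137 in PF_Z and 173 to 219 in PF_D, most of the last from IRX7. In the class of other proteins, NAC073 DN18405_c0_g1, a secondary wall NAC whose Nr match is named a myb-like protein, fell by 1.71 from PF_Z (SE 0.28, adjusted p = 0.0017). The 3 members named MYB86 did not share a direction. DN14591_c0_g1 rose by 1.40 from PF_Z to PF_D (SE 0.25, adjusted p = 0.0029), and another was not called. The fragment DN18527_c0_g1 fell by 1.71 from PF_L to PF_Z (SE 0.41, adjusted p = 0.029), a call kept under 11 of 20 alternatives. Among others, it was lost with either pseudocount, under quantile normalization and without PF_L replicate 2 or 3 or PF_Z replicate 1.

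**Figure D4:**
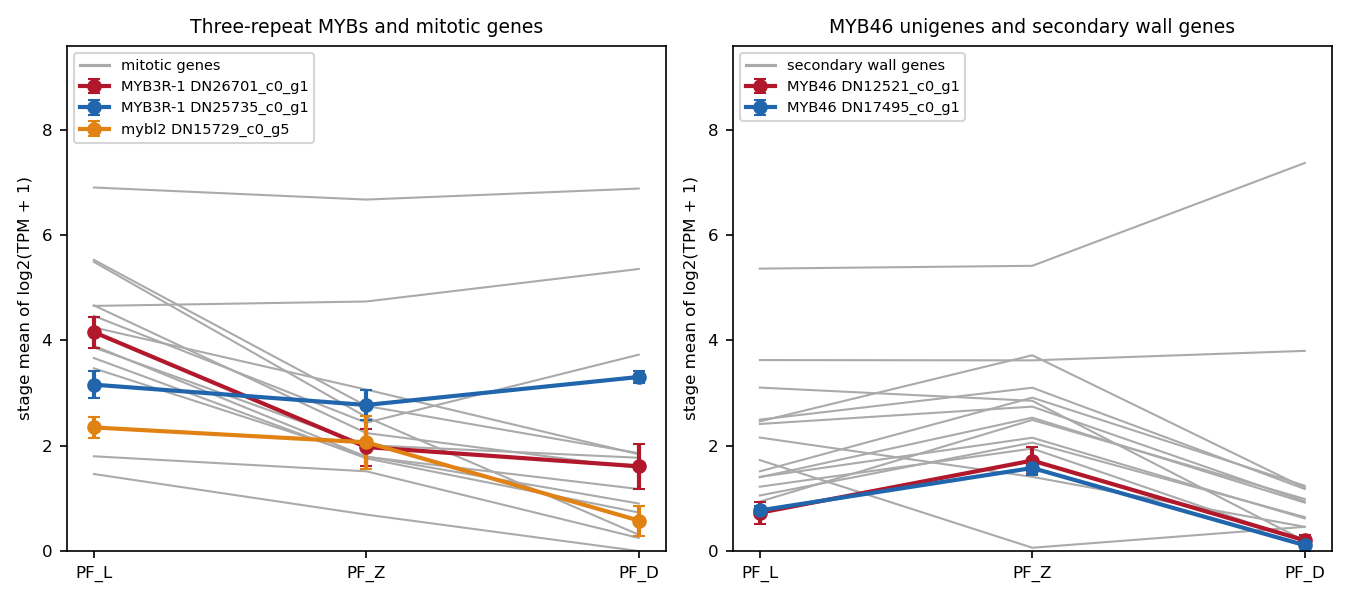
Stage means of log2(TPM + 1) for 3 three-repeat members with 13 mitotic unigenes (left) and for 2 MYB46 members with 14 secondary wall unigenes (right). Colored lines are members with SD over n = 3 libraries, and grey lines are single companion unigenes. MYB3R-1 DN26701_c0_g1 drops between PF_L and PF_Z as 8 of the 13 mitotic unigenes do. Both MYB46 lines peak in PF_Z, the only stage through which these unigenes met the filter, so that peak was likely from the start.

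The 2 members named MYB3R-1 differed. DN26701_c0_g1 had 13.1, 18.6 and 19.5 TPM in PF_L, 2.69, 2.20 and 4.14 TPM in PF_Z, and 1.27, 2.03 and 3.13 TPM in PF_D. Its PF_L libraries were far above the rest, and PF_Z and PF_D overlap. It fell by 2.18 at the first step (SE 0.29, adjusted p = 0.0018) and did not pass at the next (-0.37, SE 0.29, adjusted p = 0.38). DN25735_c0_g1 stood at 8.03 ± 1.55, 5.93 ± 1.45 and 8.91 ± 0.809 TPM in the 3 stages (n = 3) and was not called. Of the 13 mitotic unigenes, 8 fell in PF_Z against PF_L and 10 in PF_D against PF_L, and none rose in either. Those counts are 61.5% and 76.9%, beside 6.84% and 25.1% of all tested unigenes called. CDKB2-1, a mitotic kinase, fell by 2.77 at the first step (SE 0.18, adjusted p = 5.3e-05), whereas CYCB1-2 stood at 99.1 to 126 TPM in all libraries and was not called. The remaining three-repeat name, an animal mybl2 match, came from a cluster with unigenes matched in Nr to MYB315 and fell by 1.49 from PF_Z to PF_D (SE 0.31, adjusted p = 0.0064).

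MYB5 regulates mucilage, tannin and trichome traits in Arabidopsis, and the group with MYB36 names held 9 members. DN18527_c1_g3 had 13.9, 13.5 and 13.2 TPM in PF_L, 12.6, 13.3 and 11.8 TPM in PF_Z, and 37.4, 29.5 and 27.7 TPM in PF_D. The earlier stages overlap and PF_D stood above both, with a rise of 1.15 (SE 0.15, adjusted p = 0.00027) against PF_L and 1.25 (SE 0.15, adjusted p = 0.00032) against PF_Z. Another MYB5-named member, DN21251_c1_g1, fell by 2.31 against PF_L (SE 0.29, adjusted p = 0.00022). C1-named DN13280_c0_g1, MYB82-like in Nr, had 12.9, 24.6 and 15.5 TPM in PF_L, 2.81, 2.27 and 6.18 TPM in PF_Z, and was listed at 0, 0 and 0.32 TPM in PF_D. It fell by 2.01 at the first step (SE 0.34, adjusted p = 0.0070) and by 2.03 at the next (SE 0.34, adjusted p = 0.0021). Both MYB36-named members that were called were lower in PF_D than in PF_L and had at most 3.35 TPM in any library.

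In the short R3 class, CPC, a repressor of trichomes and promoter of root hairs in Arabidopsis, was the best match of 2 members that moved apart. DN20443_c0_g1 had 7.80, 8.45 and 4.69 TPM in PF_L, 4.57, 3.67 and 9.15 TPM in PF_Z, and 22.9, 31.3 and 33.1 TPM in PF_D. DN14317_c0_g1 had 48.9, 41.6 and 39.9 TPM in PF_L, 11.5, 23.2 and 28.7 TPM in PF_Z, and 19.9, 16.7 and 22.7 TPM in PF_D. The former was highest in PF_D and the latter in PF_L, without overlap with the other stages in either case. The former rose by 2.21 from PF_Z to PF_D (SE 0.31, adjusted p = 0.00071). The latter fell by 1.09 from PF_L to PF_Z (SE 0.28, adjusted p = 0.039), a call kept under 4 of 20 alternatives and lost without any 1 of the libraries except PF_Z replicate 3, and by 1.10 against PF_L in PF_D (SE 0.28, adjusted p = 0.012), a call lost by median ratios and without PF_D replicate 2. ETC3 fell by 2.43 in PF_D against PF_L (SE 0.43, adjusted p = 0.0016), and TRY was not called. Of 6 unigenes for their bHLH and WD40 partners, 3 fell in PF_D against PF_L (a GL3 and both TTG1) and none rose.

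The 6 members of the MYB306 group, which includes MYB30, relate to proteins that act on cuticle and stress responses. None was called lower in any comparison. Of all tested unigenes, 4.70%, 15.7% and 9.07% were lower in PF_Z against PF_L, PF_D against PF_L and PF_D against PF_Z. With 6 members, the lack of a fall is near those shares. MYB306 DN18898_c0_g1 had 23.6, 39.5 and 37.5 TPM in PF_L, 26.9, 32.1 and 27.1 TPM in PF_Z, and 58.5, 72.7 and 51.9 TPM in PF_D. PF_D lay above both earlier stages, and the rise from PF_Z was 1.05 (SE 0.21, adjusted p = 0.0048), a call lost with either scaling and without PF_D replicate 2. DN21748_c0_g1 rose by 1.25 from PF_Z (SE 0.31, adjusted p = 0.013), a call lost without PF_Z replicate 2 or PF_D replicate 2 or 3. Of 28 unigenes of a cuticle list, which includes ERF003 relatives of WIN1, 17 rose and 4 fell in PF_D against PF_L, with sums of 706 to 745 TPM in PF_L and 2289 to 2443 TPM in PF_D. Calls came to 75.0% of that list, beside 25.1% of all tested unigenes. WIN1 DN16455_c0_g2, an activator of wax genes, had the largest rise (4.27, SE 0.22, adjusted p = 8.8e-07), and KCS1 DN17706_c0_g1, a fatty acid elongase, the largest fall (-4.61, SE 0.24, adjusted p = 9.2e-07).

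The 22 MYB-CC and GARP members had 2 rises and 8 falls in PF_D against PF_L, and 2 rises and 6 falls in PF_D against PF_Z. Those counts are 45.5% and 36.4%, beside 25.1% and 18.0% of all tested unigenes. EFM, a floral repressor in Arabidopsis, was the SwissProt name of 9 members, with Nr matches that include KAN4-like and PCL1-like proteins. EFM DN23465_c0_g1 had 84.9, 93.4 and 81.5 TPM in PF_L, 87.3, 106.2 and 122.9 TPM in PF_Z, and 42.2, 28.0 and 41.2 TPM in PF_D. Its PF_D libraries lay under all others, and it fell by 1.49 from PF_Z (SE 0.19, adjusted p = 0.00039). The 3 EFM members of cluster DN21106_c0 and DN13024_c0_g1 also fell in both comparisons with PF_D, by 1.26 to 1.90 against PF_L. DN13024_c0_g1 shares its Nr match, an uncharacterized Fragaria vesca protein, with DN21106_c0_g1 and DN21106_c0_g3. Whether these unigenes are pieces of the same gene is not known, so their falls are not separate evidence.

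Members with PHL names, relatives of the phosphate regulator PHR1 of Arabidopsis, went both ways, and both members that rose in this class were among them. PHL2 DN20689_c1_g2 had 6.55, 7.74 and 7.76 TPM in PF_L, 9.48, 6.77 and 12.2 TPM in PF_Z, and 28.8, 30.7 and 22.9 TPM in PF_D. PHL6 DN28473_c1_g1 had 43.7, 19.4 and 33.5 TPM in PF_L, 21.3, 16.9 and 35.0 TPM in PF_Z, and 58.5, 102.02 and 83.8 TPM in PF_D. In both, every PF_D library was above every other. They rose by 1.76 (SE 0.21, adjusted p = 0.00016) and 1.35 (SE 0.34, adjusted p = 0.011) against PF_L. PHL8 DN21247_c0_g2 and PHL11 DN15657_c0_g1 instead fell, by 1.36 (SE 0.21, adjusted p = 0.00072) and 1.17 (SE 0.28, adjusted p = 0.0088), calls lost with a pseudocount of 5 TPM and, for PHL11, under quantile normalization. The 4 PHL7 members and PHL8 DN21247_c0_g3 were not called. Of 8 tested SPX and PHT1 unigenes, which sense and take up phosphate, 2 rose and 1 fell in PF_D against PF_L, and 1 rose in PF_D against PF_Z. These are 37.5% and 12.5%, beside 25.1% and 18.0% of all tested unigenes. Their sum was uneven within a stage, from 34.2 to 282 TPM in PF_L.

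Of the 10 single-repeat members, 3 were called in at least 1 comparison, near the 31.2% of all tested unigenes, and 7 in none. MYB1R1 DN21527_c0_g1, the highest of them, had 254, 228 and 202 TPM in PF_L, 109, 161 and 201 TPM in PF_Z, and 249, 165 and 170 TPM in PF_D, with overlap between PF_D and both other stages. MYB1R1 DN12060_c0_g2 had 6.96, 10.6 and 7.85 TPM in PF_L, 1.77, 1.67 and 1.45 TPM in PF_Z, and 0.18, 0.07 and 0.34 TPM in PF_D. The stages did not overlap, and it fell at both steps, by 1.83 (SE 0.25, adjusted p = 0.0022) and 1.14 (SE 0.25, adjusted p = 0.0080). DN20406_c0_g1 fell from 64.1 ± 13.0 TPM in PF_L to 14.8 ± 2.43 TPM in PF_D (-2.04, SE 0.27, adjusted p = 0.00027, n = 3). Of 8 unigenes for RADIALIS-like proteins, short single-repeat proteins that compete with DIVARICATA for its partners in Antirrhinum, 4 fell and 2 rose in PF_D against PF_L. That is 75.0% of the 8, beside 25.1% of all tested unigenes called. RL6 DN10295_c0_g1 fell by 4.97 (SE 0.30, adjusted p = 2.1e-06), and RL5 DN8117_c0_g1 was at or near 0 in PF_L and at 8.47, 9.43 and 10.4 TPM in PF_D (3.35, SE 0.37, adjusted p = 9.0e-05).

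**Figure D5:**
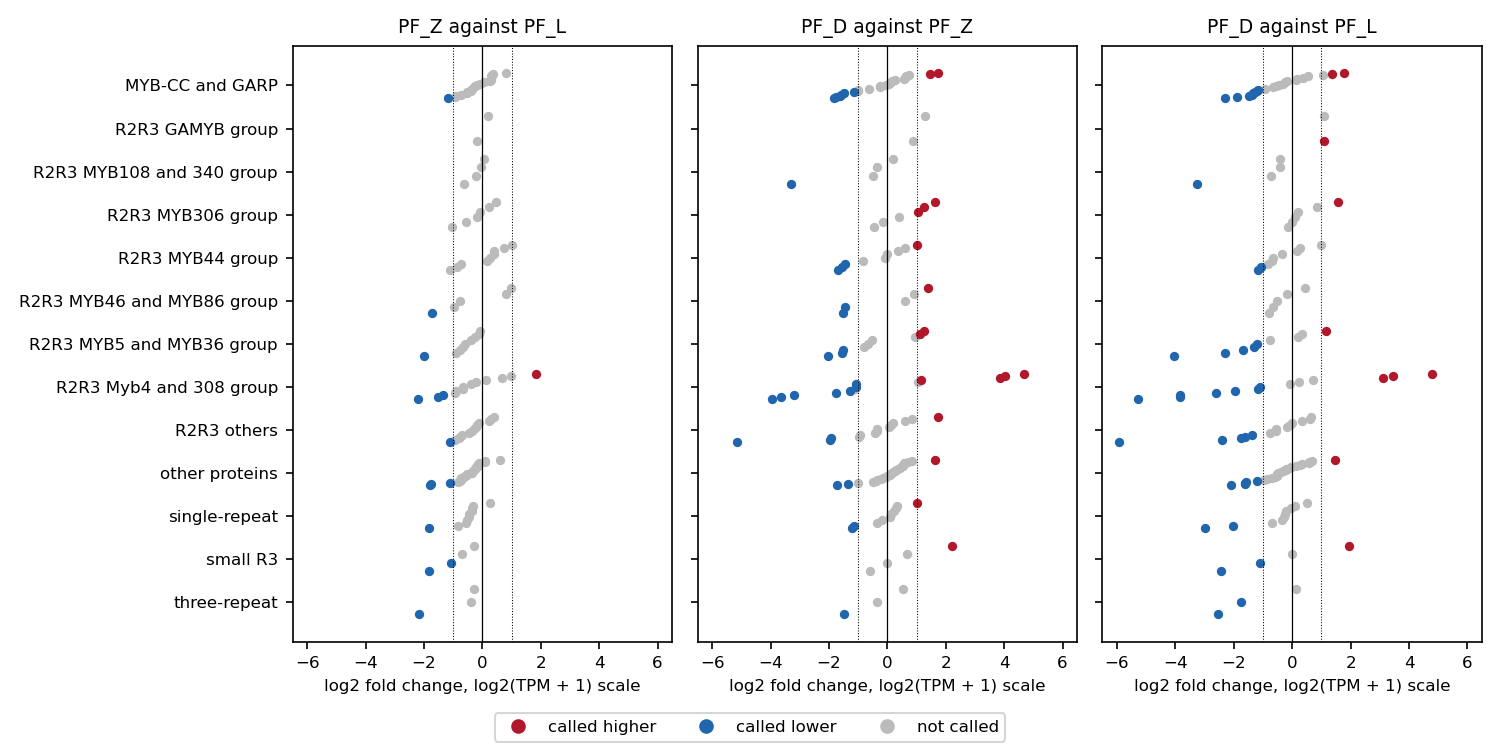
Log2 fold change of each of the 127 members (points) by class (rows) for the 3 comparisons, on the log2(TPM + 1) scale, with called members in red or blue and dotted lines at a log2 fold change of 1 in either direction. The group of Myb4 and MYB308 spreads the farthest on the side of rises and the MYB28-like fragment of the others reaches the lowest value, -5.93.

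Among the 26 other proteins, 11 of which had a Myb domain listed, 6 were called in at least 1 comparison and 20 in none. Of all tested unigenes, 31.2% were called at least once. TOM1 DN27547_c1_g1, named as a target of Myb with a VHS domain of endosomal sorting proteins, had the highest level, 188 ± 26.3 TPM in PF_L and 131 ± 19.1 TPM in PF_D (n = 3), and was not called. The pair named myb-like protein J fell from PF_L to PF_Z. DN16078_c0_g1, with a NOZZLE domain as in the Arabidopsis sporocyte regulator, had 18.8, 8.83 and 14.4 TPM in PF_L, 2.14, 2.42 and 5.54 TPM in PF_Z, and 3.54, 3.52 and 3.90 TPM in PF_D. Its PF_L libraries were above all others, and it fell by 1.80 at the first step (SE 0.33, adjusted p = 0.0092). DN23525_c2_g2 fell by 1.77 (SE 0.34, adjusted p = 0.011), a call lost without PF_L replicate 3. In both, PF_L replicate 2 was the lowest of its stage.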

How the data were processed

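Petal RNA of 9 libraries (3 stages, 3 biological replicates each) was sequenced by the authors and assembled de novo with Trinity. The deposited values are TPM, scaled by the authors for length and to an equal total, and summed to 993148 to 994911 per library. The program that estimated TPM is not given in the sources used here. Among the tools in the submitters' processing notes are Bowtie 0.12.2, HISAT2 2.0 and StringTie 1.3.0, and mm8 is named there as a build, in each case with no role stated. TPM keeps no counts, so no test used sequencing depth, and low TPM carry the least precision. The study's supplement lists the reads of each library, which differed and were fewest in PF_L replicate 1.

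The 47924 unigenes with at least 1 TPM in 3 or more libraries were analysed on the log2(TPM + 1) scale by limma 3.58.1 (R 4.3.3). The model gave each stage its mean, the variance followed abundance, and Benjamini-Hochberg adjustment ran over every unigene tested. The count test named in the study's methods was not used, as TPM are not counts. The procedure was tested on simulated data. Members, classes and companion lists were chosen with earlier results of these data known. Per comparison, the 6 strongest called rises and the 6 strongest called falls were named if the higher stage averaged 10 TPM or more. In each class, the member with the highest mean and those with the strongest call up and down were named too. Other members and the companion unigenes were named after their values were seen. The alternatives were pseudocounts of 0.1 and 5, filters of none and 5 TPM, median ratios, quantile normalization, only the 6 libraries under comparison, a constant prior variance, robust moderation, the replicate number as a block, 0.01 as limit of the adjusted p, and the omission of each library in turn. No sequence or coordinate was used here. Matplotlib 3.10.9 under Python 3.11.15 made the figures.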

Additional observations from a re-analysis of the deposited data

How the results depend on the processing

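Of 111 calls of members, 49 held under all 20 alternatives: 24 in PF_D against PF_L, 21 in PF_D against PF_Z and 4 in PF_Z against PF_L. No named member reversed in any comparison in which it was called, nor did any count. Most counts that moved by over 1.5 times were those of PF_Z against PF_L. There, 1 higher and 14 lower members became 1 and 8 with a pseudocount of 0.1, 8 lower with a pseudocount of 5, 4 and 9 with median ratios, 5 and 8 with quantile normalization, 8 lower in the model of the 6 libraries compared, and 0 and 6 at an adjusted p limit of 0.01. A pseudocount of 5, which shrinks low members, gave 6 higher and 21 lower in PF_D against PF_L (10 and 39 in the report) and 8 higher and 16 lower in PF_D against PF_Z (17 and 30). Leaving out 1 library gave 0 to 2 higher and 6 to 22 lower in PF_Z against PF_L, 9 to 11 and 34 to 39 in PF_D against PF_L, and 13 to 21 and 24 to 30 in PF_D against PF_Z.

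Same-numbered libraries of different stages had correlations of deviations from -0.096 to 0.043, and those of different numbers from -0.089 to 0.139. No sign of pairing by number was seen. The labels state none, and 3 libraries per stage cannot decide it. With a replicate block, the counts were 1 higher and 10 lower in PF_Z against PF_L, 10 and 38 in PF_D against PF_L, and 17 and 31 in PF_D against PF_Z. TPM holds no depth, and 73 of the 127 members had a mean under 10 TPM.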
